A study of Mus musculus with 6 samples.

Results

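Tph1, Ddc and Hdc encode the enzymes that make serotonin and histamine, and all 4 of their probe sets were higher on every leukemia array than on any wild-type array. They were taken as all probe sets whose single gene symbol is Tph1, Ddc or Hdc, which gave 4 of the 28821 probe sets of the deposited table, with 1 for Tph1, 1 for Ddc and 2 for Hdc. These are 3 of the 13146 genes with such a probe set. The 3 genes were chosen by their leukemia and wild-type values in these same arrays, so those values are a description and carry no test. Among all 9715 genes tested by limma, 16.9% rose and 25.2% fell in leukemia. How many of all probe sets separate the groups without overlap was not counted, so no share stands beside these 4.

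Tph1 is the tryptophan hydroxylase of peripheral tissues, which turns tryptophan into hydroxytryptophan with tetrahydrobiopterin as its cofactor, the rate-limiting step of serotonin synthesis. Ddc, the aromatic L-amino acid decarboxylase, then makes serotonin, and the same enzyme makes dopamine from DOPA. Hdc, the histidine decarboxylase, makes histamine in a single step, and both decarboxylases use pyridoxal phosphate, the active form of vitamin B6. In blood-forming tissue histamine is made mainly by mast cells, basophils and immature myeloid cells, and rodent mast cells also store serotonin in their granules.

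The study set Lin-/Sca1-/cKit+ cells, a gate for myeloid progenitors, from AE9a leukemia against the same gate from wild-type mice on Affymetrix arrays, with 3 arrays a group. Leukemia cells came from the spleens of lethally irradiated MF1 mice, each a wild-type host that had received hematopoietic progenitors transduced with AE9a, and the 3 arrays are of mice numbered separately. AE9a is a truncated splice form of the AML1-ETO fusion protein of human acute myeloid leukemia. Wild-type cells came from the bone marrow of wild-type MF1 mice, the labels do not say whether several mice were pooled for an array, and p-values would then measure only the spread between these samples. All mice were aged 12 to 16 weeks and each array was made from 200 ng of total RNA. Tissue, irradiation and transplantation differed between the groups together with AE9a, so their effects cannot be told apart, and the labels name no marker that separates transduced cells from host cells in the sort. In bulk samples such as these, a different number of cells of a type and a different amount of RNA per cell cannot be told apart.

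The arrays had median intensities between 71.6 and 79.9, and each array's 40th percentile, used as the limit for a dim value, lay between 5.39 and 5.54 on the log2 scale. Wild-type arrays correlated with each other at r between 0.992 and 0.994 across probe sets and leukemia arrays at r between 0.969 and 0.978. Leukemia replicate 1 shared its hybridization run with all wild-type arrays, and leukemia replicates 2 and 3 shared the other of 2 runs. The 5′ probe set of 18S ribosomal RNA was 3.13 log2 units higher in leukemia, and the part of this in the results was not tested. Kit, the surface receptor of the sort, was bright on all 6 arrays. Its brightest probe set fell by 0.76 log2 (limma adjusted p = 0.00436), whereas its other probe set had a difference of 0.72 and the mean of both -0.02 (adjusted p = 0.945, the highest of 0.00326 to 0.945 over the alternatives). Ptprc, which encodes the blood cell antigen CD45, was bright on the 3 wild-type arrays and below the 40th percentile on all 3 leukemia arrays, a fall of 7.64 ± 0.20 log2 (SE, limma adjusted p = 4.00e-06); its other probe set was dim on all arrays, and the mean of both fell by 3.91.

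The sequences just before the start sites are shown because Tph1 and Ddc lay near the dim end of the wild-type arrays and near the bright end of the leukemia arrays. RefSeq on GRCm38.p6 gave 5 windows of 250 bases for the 3 matched genes. They were searched on both strands for 7 motifs, the Runx motif TGTGGT, the motif AGATAA of the Gata factors, the E-box CANNTG, the Mitf E-box with the letters CATGTG (a case of the E-box), the Stat motif with the letters TTCNNNGAA, the cyclic AMP response element TGACGTCA and the box with the letters TATAAA. The 3 windows with a match are printed 5′ to 3′ on the minus strand, where all 3 genes lie, with the match in capitals: Tph1 at chr7:46672538-46672787, Ddc at chr11:11898145-11898394 and Hdc at chr2:126618679-126618928.
Tph1: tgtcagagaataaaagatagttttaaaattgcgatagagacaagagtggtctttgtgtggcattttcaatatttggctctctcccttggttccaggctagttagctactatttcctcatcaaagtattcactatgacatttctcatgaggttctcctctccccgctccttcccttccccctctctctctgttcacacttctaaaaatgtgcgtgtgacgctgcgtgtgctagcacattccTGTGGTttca
Ddc: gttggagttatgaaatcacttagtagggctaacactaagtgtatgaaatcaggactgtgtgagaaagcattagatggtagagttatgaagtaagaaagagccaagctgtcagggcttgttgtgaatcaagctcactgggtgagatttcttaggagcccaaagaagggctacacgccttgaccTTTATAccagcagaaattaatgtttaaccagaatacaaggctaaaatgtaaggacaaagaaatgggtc
Hdc: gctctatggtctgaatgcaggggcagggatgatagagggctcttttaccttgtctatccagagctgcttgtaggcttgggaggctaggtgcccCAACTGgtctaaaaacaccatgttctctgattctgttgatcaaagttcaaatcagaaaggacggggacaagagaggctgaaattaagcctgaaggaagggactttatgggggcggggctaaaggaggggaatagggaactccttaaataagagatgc
The Tph1 window held TGTGGT from 10 to 5 bases before the start, the sequence of the Runx motif on the gene's own strand, which 14.0% of all 32851 windows of this length held. In the Ddc window the capitals are TATAAA read on the opposite strand, from 68 to 63 bases before the start, and 12.4% of windows held it. Hdc's window held 1 E-box, CAACTG, from 157 to 152 bases before the start, and 66.2% of windows held CANNTG. No motif was shared by the 3 windows, and the second windows of Tph1 and Ddc, from other start sites, held none of the 7. The shares for the others were 10.0% for AGATAA, 12.3% for CATGTG, 7.0% for TTCNNNGAA and 1.5% for TGACGTCA. A match says only that these letters are present.

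For Tph1 the log2 values were 3.50, 3.21 and 3.19 on wild-type replicates 1, 2 and 3, and 11.27, 12.88 and 10.15 on leukemia replicates 1, 2 and 3. On the intensity scale these were 11.3, 9.23 and 9.10 against 2477, 7539 and 1133. Every wild-type value lay below the array's 40th percentile, between the 8.5 and the 12.7 percentile of its array, and every leukemia value lay at the 92.4 percentile or higher. The means were 3.30 ± 0.18 in wild-type and 11.43 ± 1.37 in leukemia (log2, SD, n = 3 each), a difference of 8.14, or 281-fold. Because the wild-type values were dim, the size is better given as a bound, and with values below the 40th percentile raised to it the difference was 5.91, at least 60.2-fold. Tph1 was also the most variable of the 3 genes among the leukemia mice, with a range of 2.73 log2 or 6.65-fold. Leukemia replicate 2 was the highest and replicate 3 the lowest, and leaving them out in turn gave 7.41 (170-fold) and 8.78 (439-fold).

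For Ddc the log2 values were 3.26, 3.06 and 3.47 on the wild-type arrays and 10.77, 11.23 and 11.35 on leukemia replicates 1, 2 and 3. In intensity the wild-type arrays gave 9.59, 8.34 and 11.1, and the leukemia arrays 1742, 2409 and 2604. The groups did not overlap, and as for Tph1 all 3 wild-type values were dim. Means of 3.26 ± 0.21 and 11.12 ± 0.31 (log2, SD, n = 3 each) gave a difference of 7.85 or 231-fold, and at least 48.3-fold with dim values raised to the 40th percentile. Ddc varied little among the leukemia mice, by 0.58 log2 or 1.49-fold.

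Hdc differed from the other two in that it was bright in both groups. Its brighter probe set had log2 values of 9.17, 9.55 and 9.20 on the wild-type arrays and 11.63, 12.42 and 12.43 on leukemia replicates 1, 2 and 3, that is intensities of 576, 749 and 589 against 3178, 5475 and 5502. Means of 9.31 ± 0.21 and 12.16 ± 0.46 (log2, SD, n = 3 each) gave a difference of 2.85, or 7.23-fold. The other probe set had 9.0, 9.23 and 9.01 against 11.87, 12.19 and 12.00, with means of 9.08 ± 0.13 and 12.02 ± 0.16 and a difference of 2.94, or 7.67-fold. Both probe sets separated the groups without overlap, and their differences lay 0.09 log2 apart. Wild-type cells thus carried Hdc RNA as well, at the 84.8 to 88.4 percentile of its arrays for the brighter probe set.

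**Figure D1:**
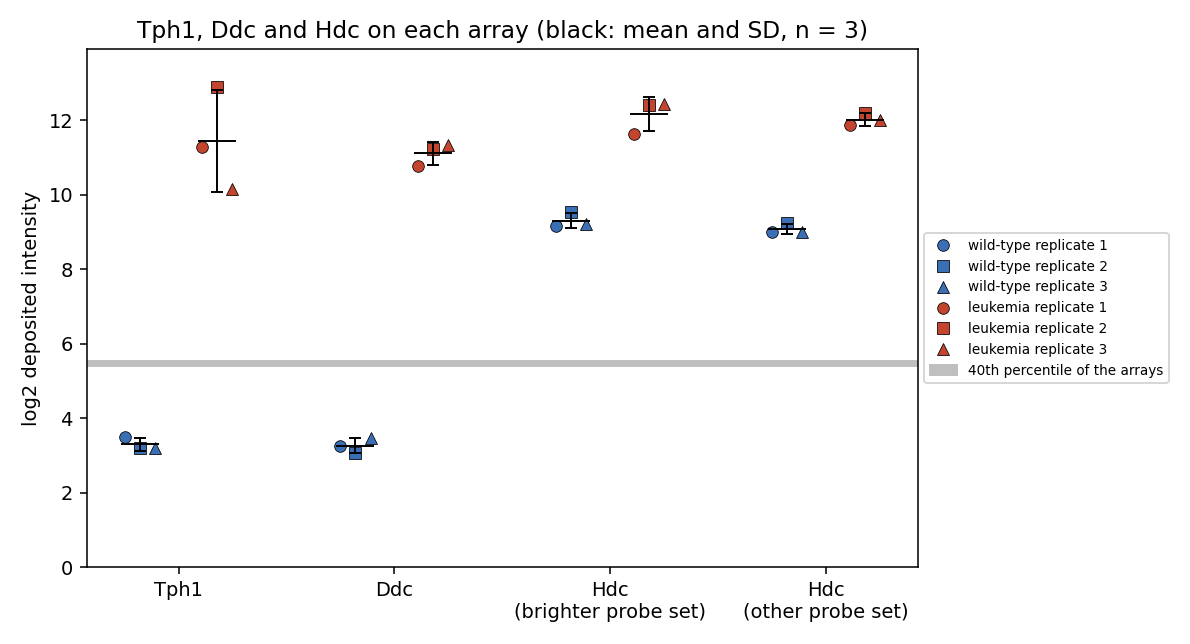
The log2 deposited intensity of each probe set of Tph1, Ddc and Hdc is plotted for the 3 wild-type arrays (blue) and the 3 leukemia arrays (red), with black bars for the mean and SD and a grey band for the 40th percentile of the arrays. Wild-type Tph1 and Ddc sit below the band, while both Hdc probe sets sit above it in both groups.

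The order of the leukemia mice differed between probe sets. Tph1 was highest in leukemia replicate 2, then 1, then 3, whereas Ddc and the brighter Hdc probe set were highest in replicate 3, then 2, then 1, although for Hdc replicates 3 and 2 were nearly equal at 12.43 and 12.42. The other Hdc probe set was highest in replicate 2. Leukemia replicate 1, the only leukemia array of the wild-type arrays' run, was the lowest for Ddc and for both Hdc probe sets. Within that run it lay above the wild-type mean by 7.98 for Tph1, 7.50 for Ddc and 2.33 for the brighter Hdc probe set (2.79 for the other), values from 1 leukemia array.

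Likeness to other genes was measured as the root mean square difference over the 6 arrays of log2 values, each gene centred on its wild-type mean. Of the tested genes the nearest to Tph1 was Ddc at 0.87, followed by Tnni3, cardiac troponin I, at 1.01 and Pmp22, a myelin membrane protein, at 1.19. Ddc was nearest to Tnni3 at 0.59 and Pmp22 at 0.61, with Tph1 in the third place. Tnni3 went from a log2 mean of 4.83 ± 0.05 to 11.95 ± 0.17 and Pmp22 from 3.34 ± 0.22 to 10.37 ± 0.46 (SD, n = 3 each), both from dim to bright. The genes nearest to Hdc were others: Cntn3 at 0.15, Mgarp at 0.20 and Tmtc2 at 0.21, and Tph1 and Ddc lay at 3.83 and 3.54 from it. This measure is set mostly by the size of the difference between the groups.

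Genes of the surrounding pathway come from 10 lists with 90 genes in all, of which 62 had a single-symbol probe set, 22 were dim and 40 were tested; the other 28 were not analysed here. Of the 40, 9 rose, 14 fell and 17 did not pass (limma, two-sided, Benjamini-Hochberg adjusted p under 0.05 over 9715 genes). Among all tested genes 16.9% rose and 25.2% fell, 42.1% in either direction. The median difference was -0.26 for the 40 genes and -0.09 for all tested genes, and 9 of the 40 were bright in a single group, where the size of a difference depends on the background level.

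Tetrahydrobiopterin, the cofactor of Tph1, had 7 tested genes, of which 2 rose, 1 fell and 4 did not pass (median -0.09). Gch1, GTP cyclohydrolase I, which opens the route and limits it, had log2 values of 6.99, 6.67 and 7.13 on the wild-type arrays and 9.10, 8.99 and 9.94 on the leukemia arrays. It rose by 2.42 ± 0.27 log2 (SE, limma adjusted p = 5.90e-04), or by 1.68 as the mean of its 2 probe sets. Its feedback regulator Gchfr rose with it, from 6.26, 6.39 and 6.56 to 8.89, 8.83 and 8.25, by 2.26 ± 0.21 (SE, limma adjusted p = 2.36e-04). The groups overlapped for neither gene. Of the later synthesis steps, Pts and Spr did not pass, with differences of -0.24 and 0.24, nor did the recycling enzymes Qdpr at -0.09 and Pcbd2 at -0.22, although Qdpr passed as lower, at -0.28, with the mean of its probe sets. Pcbd1, the other pterin dehydratase of the recycling arm, fell by 2.10 ± 0.16 (SE, limma adjusted p = 9.40e-05) to below the 40th percentile on all 3 leukemia arrays.

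Pyridoxal phosphate, the cofactor of Ddc and Hdc, had 3 tested genes, of which 2 fell (median -1.37). Pdxk, the kinase that makes it from pyridoxal, fell by 1.37 ± 0.11 (SE, limma adjusted p = 1.59e-04), although its other probe sets differed by -0.27 and -0.22 and the mean of all fell by 0.62. Pdxp, the phosphatase that removes it, fell by 1.71 ± 0.31 (SE, limma adjusted p = 0.00474). Phospho2, a related phosphatase, did not pass at 0.30, but passed as higher, at 0.45, with the mean of its probe sets.

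**Figure D2:**
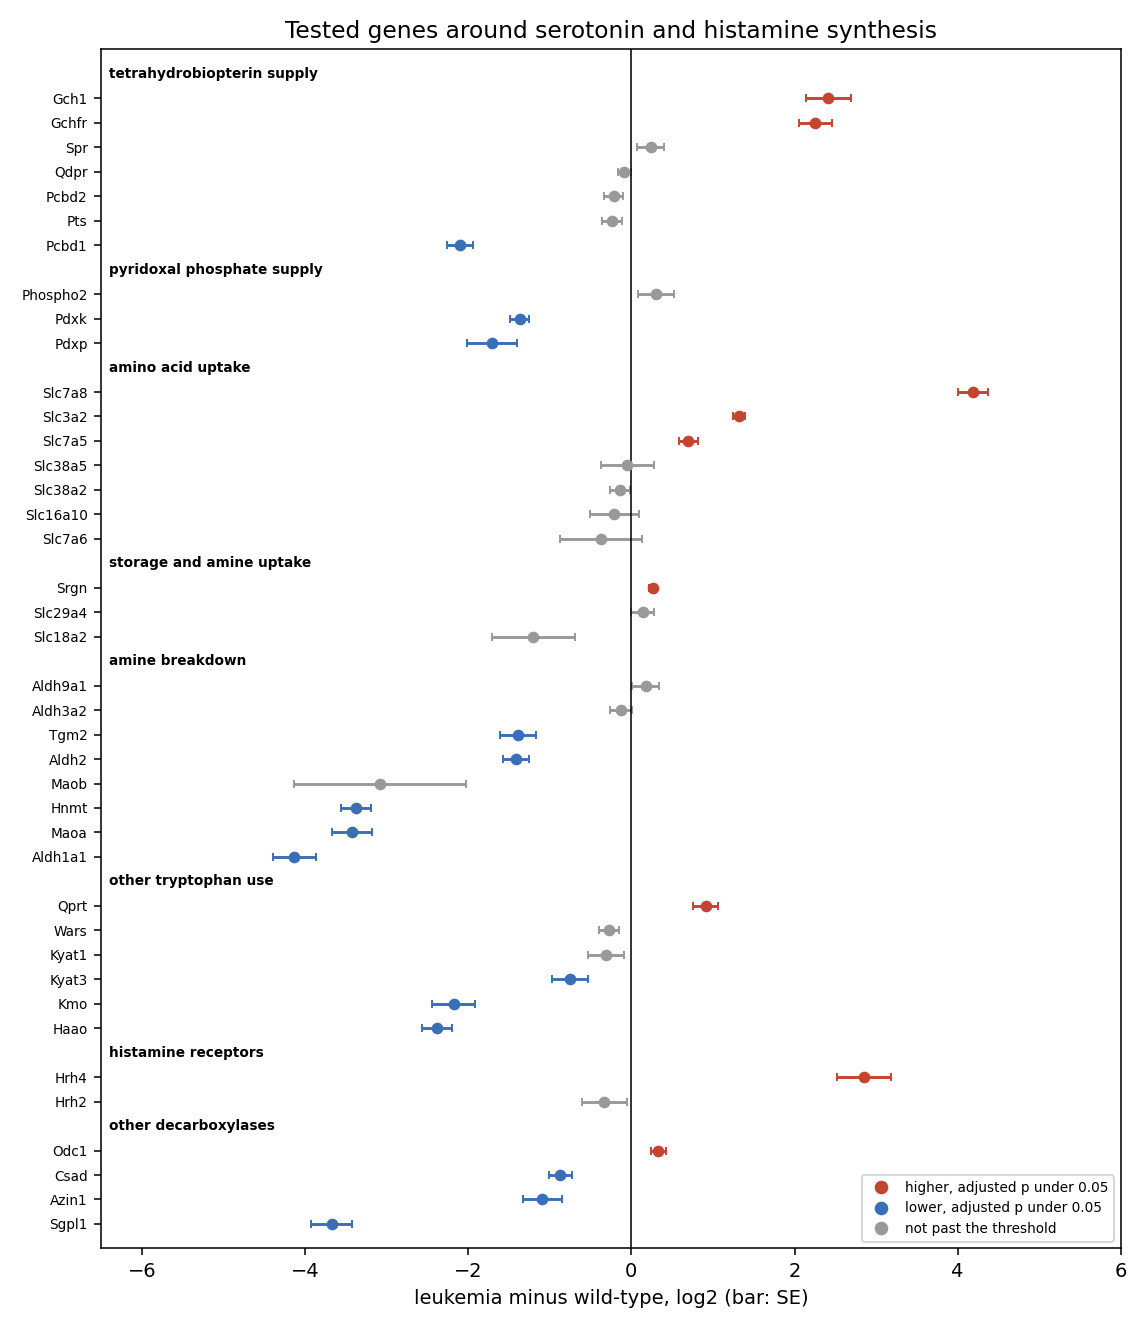
Each point is the leukemia minus wild-type difference (log2, bar: SE of the limma fit) of 1 of the 40 tested genes, by role, red where it rose, blue where it fell and grey where it did not pass. Slc7a8, Hrh4, Gch1 and Gchfr lie farthest to the right, and Aldh1a1, Sgpl1, Maoa and Hnmt farthest to the left.

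Amino acid uptake had 7 tested genes, of which 3 rose and 4 did not pass (median -0.05). The 3 encode subunits of system L, which carries tryptophan, histidine and DOPA among other large neutral amino acids. Slc7a8, the light chain LAT2, had log2 values of 6.02, 6.14 and 5.97 on the wild-type arrays and 10.54, 10.26 and 9.89 on the leukemia arrays. It rose by 4.19 ± 0.18, or 18.2-fold (SE, limma adjusted p = 1.03e-05). The light chain LAT1, Slc7a5, rose by 0.70 ± 0.11 (SE, limma adjusted p = 0.00313), and their shared heavy chain Slc3a2 by 1.32 ± 0.08 (SE, limma adjusted p = 3.14e-05). Slc16a10, an aromatic amino acid transporter, did not pass at -0.21, but with the mean of its probe sets it passed as higher, at 0.45. The remaining carriers Slc7a6, Slc38a2 and Slc38a5 did not pass, at -0.38, -0.14 and -0.05. With the array run as a block, which compares leukemia replicate 1 with the wild-type arrays, Slc16a10, Slc7a6 and Slc38a2 passed as lower with differences of -0.94, -1.53 and -0.38.

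Storage and amine uptake had 3 tested genes, of which 1 rose (median 0.14). Slc18a2 encodes VMAT2, the vesicular monoamine transporter that loads serotonin and histamine into granules. Its log2 values were 8.0, 7.70 and 7.98 on the wild-type arrays and 5.80, 7.94 and 6.32 on leukemia replicates 1, 2 and 3, so that replicate 2 lay among the wild-type values. The difference of -1.20 ± 0.51 did not pass (SE, limma adjusted p = 0.0978); over the alternatives that p ranged from 0.00144, without leukemia replicate 2 (-1.83), to 0.215. It also passed as lower, at -2.09, with the array run as a block. Slc18a1, the other vesicular transporter, was dim on all arrays, and Slc6a4, the serotonin transporter, was not analysed here. Srgn, the core of the granule proteoglycan serglycin, rose by 0.26 ± 0.04 (SE, limma adjusted p = 0.00361), a call that was lost without the intensity trend (adjusted p = 0.064, the highest of 0.00245 to 0.064 over the alternatives). Slc29a4, a low-affinity monoamine carrier, did not pass at 0.14.

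Of 8 tested genes of amine breakdown and modification, 5 fell and 3 did not pass (median -2.25). Maoa, monoamine oxidase A, which degrades serotonin, had log2 values of 7.29, 7.75 and 7.99 on the wild-type arrays and 4.36, 3.90 and 4.48 on the leukemia arrays. It fell by 3.43 ± 0.25 (SE, limma adjusted p = 8.25e-05). Hnmt, histamine N-methyltransferase, went from 6.26, 6.38 and 6.01 to 2.59, 2.95 and 2.98, and fell by 3.38 ± 0.19 (SE, limma adjusted p = 2.66e-05). Both were above the 40th percentile on every wild-type array and below it on every leukemia array. With 16 added to each intensity before the log, a setting that damps dim values, Maoa fell by 2.65 and Hnmt fell by 1.96. Markers of several myeloid cell types were lower in leukemia as well. The 3 tested genes of the neutrophil list, Mpo, Elane and Ctsg, all fell. Another 4 genes of that list were dim by the filter and not tested, so mature neutrophils are not covered separately. Summed intensities of the list were 21132 to 25945 on the wild-type arrays and 135 to 225 on the leukemia arrays. By wild-type mean Mpo, Elane and Ctsg lay at 13.43, 11.94 and 12.98, and S100a8, the brightest of the dim genes, at 6.84. The wild-type sum is thus set by the 3 tested genes and does not stand for mature neutrophils. Of 4 tested macrophage and monocyte markers 3 fell (sums of 1558 to 2536 against 136 to 174), and of 3 tested eosinophil markers 2 fell (sums of 1257 to 2439 against 159 to 353). Of 6 tested erythroid markers 3 rose (sums of 15160 to 20980 against 19276 to 25739). The part of these cell types in the levels of the pathway genes, and in that of Hdc, was not tested.

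Maob, the second monoamine oxidase, had 7.74, 8.39 and 8.03 on the wild-type arrays and 3.68, 7.71 and 3.52 on leukemia replicates 1, 2 and 3. Replicate 2 lay over 4 log2 units above each of the other leukemia arrays, and the difference of -3.08 ± 1.06 did not pass (SE, limma adjusted p = 0.0530). Maob passed as lower without that array (-4.45), with the replicate block (-3.08), with the array run as a block (-4.38) and with 16 added to each intensity (-2.33), and over all alternatives the adjusted p ranged from 6.72e-05 to 0.144. Of the aldehyde dehydrogenases that act after the oxidases, Aldh1a1 fell by 4.13 ± 0.27 (SE, limma adjusted p = 5.10e-05) to below the 40th percentile on all 3 leukemia arrays, or by 2.90 with 16 added to each intensity. Aldh2 fell by 1.41 ± 0.16 (SE, limma adjusted p = 6.46e-04), or by 0.76 as the mean of its 5 probe sets. Aldh3a2 and Aldh9a1 did not pass, at -0.13 and 0.17, although Aldh9a1 passed as higher, at 0.54, with the array run as a block. Tgm2, a transglutaminase that can attach serotonin to proteins, fell by 1.39 ± 0.22 (SE, limma adjusted p = 0.00266) to below the 40th percentile on the leukemia arrays.

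**Figure D3:**
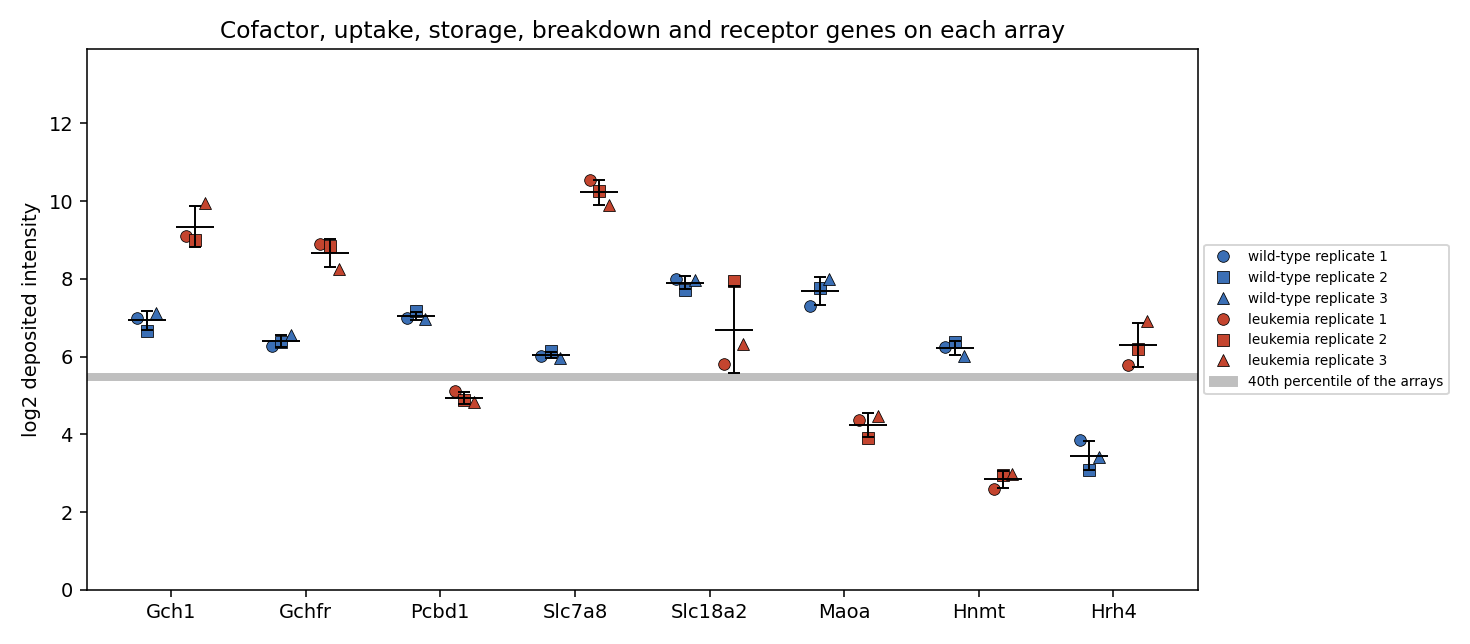
The log2 deposited intensity of 8 genes of cofactor supply, uptake, storage, breakdown and reception is plotted for the 3 wild-type arrays (blue) and 3 leukemia arrays (red), with black bars for the mean and SD and a grey band for the 40th percentile. Maoa and Hnmt cross the band downwards, Hrh4 crosses it upwards, and for Slc18a2 leukemia replicate 2 sits among the wild-type arrays.

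Other routes of tryptophan had 6 tested genes, of which 1 rose, 3 fell and 2 did not pass (median -0.53). Tdo2, Afmid and Kynu, which act at the entry and in the middle of the kynurenine route, were dim in both groups. Kmo, kynurenine monooxygenase, fell by 2.18 ± 0.26 (SE, limma adjusted p = 8.15e-04) and Haao, which makes quinolinic acid's precursor, fell by 2.38 ± 0.18 (SE, limma adjusted p = 1.09e-04), both to dim levels. Qprt, which turns quinolinic acid towards NAD, rose by 0.91 ± 0.16 (SE, limma adjusted p = 0.00375), or by 0.56 as the mean of its 2 probe sets. Kyat3, a kynurenine transaminase, fell by 0.75 ± 0.22 (SE, limma adjusted p = 0.0324), a call that was lost without any 1 wild-type array, without leukemia replicate 2 or 3, with arrays centred on the median and with either block, at adjusted p from 0.00176 to 0.201 over the alternatives. With the array run as a block its difference was -0.28. Wars, which charges tRNA with tryptophan, did not pass at -0.28, nor did the transaminase Kyat1 at -0.31, which passed as lower, at -0.71, with the array run as a block.

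Among the receptors, all 9 serotonin receptor genes with a probe set were dim and went untested. Htr1b reached a value above the 40th percentile on a single array, 6.54 on leukemia replicate 3, against 2.74 and 2.68 on the other leukemia arrays. Htr3a did so on leukemia replicate 1 alone, at 5.53, close to the limit. Of 2 tested histamine receptor genes 1 rose. Hrh4, a receptor of mast cells, basophils and eosinophils, had log2 values of 3.84, 3.08 and 3.42 on the wild-type arrays, all dim, and 5.79, 6.19 and 6.91 on the leukemia arrays. It rose by 2.85 ± 0.33 (SE, limma adjusted p = 6.60e-04), or by 1.82 with 16 added to each intensity. Hrh2 did not pass at -0.33, and Hrh1 was dim.

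Markers of mast cells, which make both amines in rodents, were set beside the 3 genes because such cells carry the surface receptor of the sort. Of 14 mast cell markers, 12 had a probe set, 4 were dim and 8 were tested, of which 4 rose, 1 fell and 3 did not pass. The summed intensity of the list ranged from 5529 to 6436 on the wild-type arrays and from 11796 to 22467 on the leukemia arrays. By leukemia mean Ms4a2 was the brightest of the list, at 12.73, and Cpa3 the next, at 11.00. Basophils share both genes, so the sum follows Ms4a2 in large part and does not stand for mast cells alone. Ms4a2, the beta chain of the IgE receptor, rose by 2.77 ± 0.13 (SE, limma adjusted p = 1.15e-05). Its other probe set had a difference of 4.53 and the mean of both 3.65. The alpha chain Fcer1a rose by 2.29 ± 0.59 (SE, limma adjusted p = 0.0197), from a wild-type mean of 7.95 to 10.16, 11.56 and 9.01 on leukemia replicates 1, 2 and 3; its adjusted p ranged from 0.0032 to 0.0789 over the alternatives and missed the threshold with the array run as a block, without wild-type replicate 2 and without wild-type replicate 3. Cpa3, the mast cell carboxypeptidase, had 10.94, 12.30 and 9.75 on the leukemia arrays around a wild-type mean of 10.82, a difference of 0.17 that did not pass (limma adjusted p = 0.822). Cma1, a chymase, rose by 4.09 ± 0.72 (SE, limma adjusted p = 0.00440), or by 3.23 without leukemia replicate 2, and Rab27b, which takes part in granule release, by 1.73 ± 0.18 (SE, limma adjusted p = 4.38e-04); both were named after their values were seen. The marker that fell was Kit, by 0.76 with its brightest probe set and by 0.02 with the mean of both. Both groups were sorted on Kit, so it is no separate measure of mast cells here. Mitf at 1.71 and Gata2 at -0.11 did not pass, although Mitf passed as higher, at 2.73, without leukemia replicate 1. With the array run as a block their differences were -0.33 and -0.75. The granule protease genes Mcpt4, Tpsb2 and Tpsab1 missed the filter of 3 arrays and were not tested. Tpsb2 was dim on all 6 arrays, and Mcpt4 reached 7.32 on leukemia replicate 2 alone. Tpsab1 had a wild-type mean of 3.54 and values of 6.90, 4.49 and 7.47 on leukemia replicates 1, 2 and 3, with no overlap between the groups.

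Among the leukemia mice Tph1 had the order replicate 2 above 1 above 3. So had 4 of the 8 tested mast cell markers, Cpa3, Fcer1a, Cma1 and Kit. For Kit, on which both groups were sorted, replicates 2 and 1 were nearly equal, at 9.80 and 9.76. The share of all tested genes with this order was not computed, so the count is a description only. The other tested markers had other orders: Ms4a2, Mitf and Gata2 were highest in replicate 2 and lowest in replicate 1, and Rab27b was highest in replicate 1 and lowest in replicate 2. Of the 4 markers that were not tested, Mcpt4 and Tpsb2 had the order of Tph1 and Hpgds and Tpsab1 had others. Tpsab1 was lowest in replicate 2. Ms4a2, at 12.52, 12.84 and 12.82, varied little among the leukemia mice. The part of mast cell numbers in the levels of Tph1, Ddc and Hdc was not tested.

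**Figure D4:**
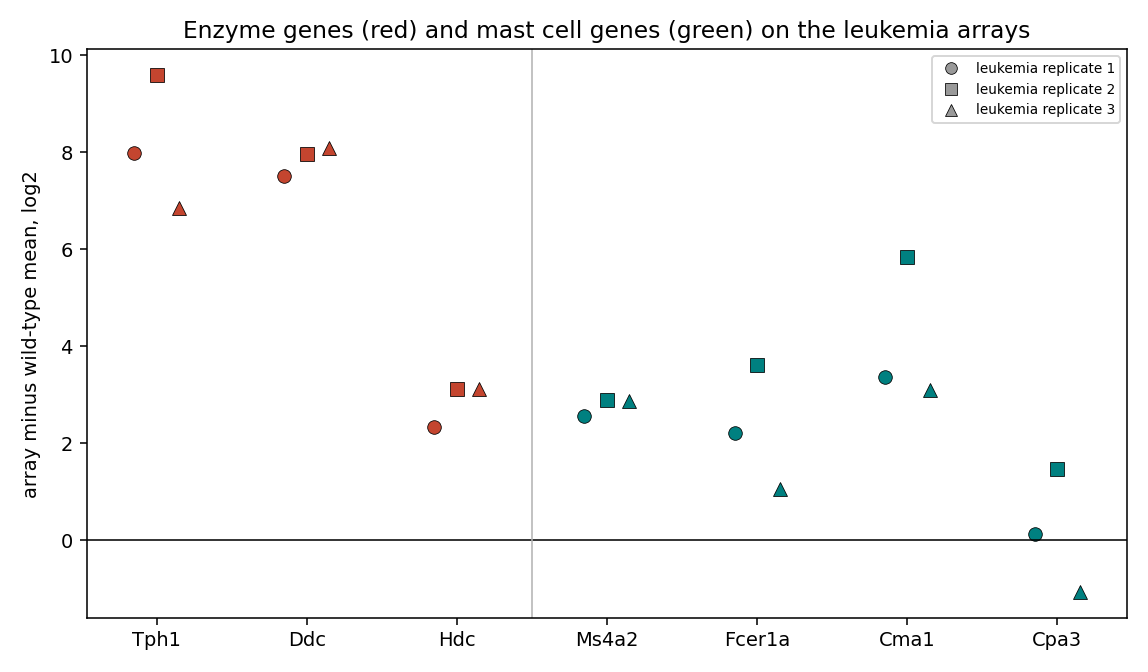
For Tph1, Ddc and Hdc (red) and 4 mast cell genes (green), each point is 1 leukemia array's log2 value minus the gene's wild-type mean. The tested mast cell markers Kit, which fell, Mitf, Gata2 and Rab27b are not drawn. Tph1, Fcer1a, Cma1 and Cpa3 were highest in replicate 2 and lowest in replicate 3, and Cpa3 lay below its wild-type mean in replicate 3. Ms4a2 was also highest in replicate 2, by a small margin, but lowest in replicate 1. Of the markers not drawn, Kit had the order of Tph1, and Mitf, Gata2 and Rab27b had other orders.

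Basophils make histamine from Hdc and share Ms4a2, Fcer1a and Cpa3 with the mast cell list. Of 10 basophil markers 8 had a probe set and 7 were tested, of which 4 rose and 2 fell. The 3 shared markers are among the 7, and of the others Cd200r3 and Il4 rose whereas Mcpt8 and Il3ra fell. With the shared markers included, the summed intensity of the list was 3821 to 4386 on the wild-type arrays and 9697 to 16783 on the leukemia arrays. By leukemia mean the shared markers were the brightest of the list, at 12.73 for Ms4a2, 11.00 for Cpa3 and 10.24 for Fcer1a. Cd200r3 and Il4 had 9.24 and 8.32, so the sum does not stand for basophils alone. Cd200r3, an activating receptor of both cell types, rose by 5.72 ± 0.19 (SE, limma adjusted p = 5.64e-06) and Il4, the cytokine interleukin 4, by 4.48 ± 0.36 (SE, limma adjusted p = 1.35e-04), both from dim wild-type levels, or by 4.50 and 3.47 with 16 added to each intensity. Mcpt8, the basophil protease, fell by 5.67 ± 0.40 (SE, limma adjusted p = 7.80e-05) and was below the 40th percentile on all 3 leukemia arrays. Il3ra, the alpha chain of the interleukin 3 receptor, fell by 1.22 ± 0.25 (SE, limma adjusted p = 0.00830), and was named after its value was seen. Mature basophils carry little Kit, the surface receptor of the sort. On the wild-type arrays of this gate Mcpt8 was bright, at 9.72, 9.59 and 10.03. The part of basophils in the level of Hdc was not tested.

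Markers of other cell types that make or carry serotonin were set beside Tph1 and Ddc. Of 13 neuroendocrine markers 2 had a probe set, Syp and Syt1, and both were dim on all 6 arrays. Of 8 markers of pineal cells and neurons 4 had a probe set, and all were dim by the filter. Platelets take serotonin up rather than make it, and of 7 tested megakaryocyte and platelet markers 5 fell and 2 rose, with summed intensities of 2018 to 2243 on the wild-type arrays and 914 to 1830 on the leukemia arrays. All of these lists are marker sets for whole cell types, and their part in the levels of Tph1 and Ddc was not tested.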

How the data were processed

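RNA of Lin-/Sca1-/cKit+ cells was measured on 6 one-colour arrays, 3 of AE9a leukemia and 3 of wild-type mice. The deposited table holds linear intensity values for 28821 probe sets; per the submitters' processing notes the authors used RMA (version: not given in the sources used here). Each array also has a hybridization record, deposited by the authors as other text, from which only the run was taken. The values were linear, so log2 was taken first. A single gene symbol was listed for 23750 probe sets, several symbols for 677 and no symbol for 4355, beside 39 control probe sets. The brightest single-symbol probe set by its mean over 6 arrays stood for a gene. Genes at or above the array's 40th percentile on at least 3 arrays were tested (9715; 3431 were dim) by lmFit and trend-moderated eBayes of limma 3.58.1 under R 4.3.3 (4 residual degrees of freedom, Benjamini-Hochberg, threshold 0.05). The number of arrays, 3 a group, limits the precision. The fit was tested on simulated data.

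The 3 genes and all lists were chosen with earlier results of these data known. Named were all probe sets of the 3 genes and list genes that passed or whose role bears on a member. Of markers, up to 3 a list were named in list order. Beyond these, all mast cell markers with a probe set and all tested basophil and neutrophil markers were named. The 3 nearest genes of each member were also named. Alternatives covered the filter, probe set choice, centring, quantile normalization, 16 added to the intensities, no trend, replicate and run blocks, values raised to the 40th percentile, and each array left out. Promoter windows came from RefSeq (GRCm38.p6). Protein sequences were not used here. Figures were drawn with matplotlib 3.10.9 in Python 3.11.15.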

Additional observations from a re-analysis of the deposited data

How the results depend on the processing

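The direction of Tph1, Ddc and Hdc held in every alternative run. The genes were chosen on this same contrast and their groups lay far apart, so this is no independent support. Their sizes moved. With 16 added to the intensities the difference was 6.75 for Tph1 and 6.45 for Ddc, and with dim values raised to the 40th percentile 5.91 and 5.59. With the array run as a block it was 7.50 for Ddc and 2.33 for Hdc, which then rests on leukemia replicate 1 alone. Leaving out each array in turn gave 7.41 to 8.78 for Tph1, 7.74 to 8.03 for Ddc and 2.72 to 3.12 for Hdc. Over these left-out arrays 8 to 9 pathway genes rose and 13 to 15 fell, and of all tested genes 1106 to 1938 rose and 1513 to 2778 fell, the fewest falling without wild-type replicate 3. Among the other alternatives the pathway genes that rose numbered from 7 without the intensity trend to 11 with the mean of all probe sets, and those that fell from 11 with the filter at the 50th percentile to 19 with the array run as a block, which called 2028 of all tested genes higher and 3104 lower. Slc16a10 turned from -0.21, not called, to 0.45, called higher, with the mean of its probe sets. Of 23 called pathway genes 19 kept the call in every alternative run, Odc1, Azin1, Srgn and Kyat3 lost it in at least 1, and 9 uncalled genes passed in at least 1; the cause was not tested. Replicate numbers did not pair the samples: deviations of same-numbered arrays correlated at -0.07, 0.05 and 0.03. With the replicate number as a block 9 pathway genes rose and 14 fell, of all tested genes 1445 rose and 2120 fell, and Tph1 stayed at 8.14. Signal near background limits the fold changes of Tph1 and Ddc, whose wild-type values were dim on all 3 arrays.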

Other observations

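Ddc and Hdc belong to a wider group of enzymes that use pyridoxal phosphate. In a list of such relatives, 1 of them without enzyme activity, 4 genes were tested, of which Odc1 rose and Sgpl1, Csad and Azin1 fell (median -0.98). Sgpl1, the sphingosine phosphate lyase, fell by 3.67 ± 0.25 log2 (SE, limma adjusted p = 6.55e-05) to below the 40th percentile on all 3 leukemia arrays, or by 2.28 with 16 added to each intensity. Csad, which serves taurine synthesis, fell by 0.87 ± 0.14 (SE, limma adjusted p = 0.00289). Odc1, the ornithine decarboxylase of polyamine synthesis, rose by 0.33 ± 0.09 (SE, limma adjusted p = 0.0288, from 0.00653 to 0.186 over the alternatives), and missed the threshold without wild-type replicate 1 or 2, without leukemia replicate 2 or 3, without the intensity trend and with the array run as a block, where the difference was 0.19. Azin1, which protects Odc1 from degradation and has no decarboxylase activity of its own, fell by 1.09 ± 0.24 (SE, limma adjusted p = 0.0100), and with the mean of its probe sets by 0.18 (adjusted p = 0.296, the highest of 0.000185 to 0.296 over the alternatives). Gad2 and Gadl1 were dim, as was Dbh, which makes noradrenaline from dopamine.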
